A study of Homo sapiens with 11 samples.

Results

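Genes of the endoplasmic reticulum (ER) stress response and of oxidative protein folding were followed through a hypoxia time course of RWPE1 cells. They are XBP1, ERN1, HERPUD1, SDF2L1, EDEM1, SEL1L, CRELD2, MANF, PDIA4 and ERO1A, taken by symbol from the table of gene counts, so 10 of its 60676 genes. RWPE1 is an immortalized, non-tumorigenic human prostate epithelial line grown in serum-free keratinocyte medium with EGF and pituitary extract. RNA was sequenced from untreated cells in normoxia (called 0 h, 3 libraries) and from cells kept in 1% oxygen for 6 h (3 libraries), 12 h (3 libraries) and 24 h (2 libraries). The medium of the hypoxic cells also held 10 mM HEPES, so oxygen and buffer cannot be told apart in any comparison with 0 h. A further 24 h library was not analysed here. The labels do not say that replicates are separate cultures, so the p-values measure the spread between these libraries, which may be technical.

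The ER folds secreted and membrane proteins. When unfolded proteins build up in its lumen, sensors in its membrane start the unfolded protein response. IRE1, the product of ERN1, then splices XBP1 mRNA in the cytosol, and the transcription factor made from the spliced form switches on genes for folding and for ER-associated degradation (ERAD), in which misfolded proteins are pulled back to the cytosol and destroyed. Disulfide bonds are made in the same compartment by protein disulfide isomerases such as PDIA4, which are reoxidised by ERO1 enzymes with molecular oxygen as the electron acceptor. The counts are sums over whole genes, so spliced and unspliced XBP1 mRNA cannot be told apart here, and no protein or IRE1 activity was measured.

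The promoters of these genes were searched for the words of known stress response elements, and the sites found are shown for the genes that hold them. RefSeq's promoter windows (GRCh38.p14, 250 bases before to 50 after each gene's start) matched 10 of the 10 genes. The ER stress response element, ERSE, was searched as CCAAT and CCACG with 9 bases between them, on both strands. It stood in 22 of 27303 promoters (0.0806%), and 2 of these were XBP1 and CRELD2. ERSE-II, searched as ATTGG and CCACG with 1 base between, stood in 15 promoters (0.0549%), and 2 of these were HERPUD1 and SDF2L1. The 4 sites are given 5′ to 3′ on the gene's strand with the whole element in capitals, and in CRELD2 and SDF2L1 the element is on the opposite strand and so reads as its reverse complement.
XBP1 (chr22:28800597-28800626, minus strand): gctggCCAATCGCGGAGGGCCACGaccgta
CRELD2 (chr22:49918549-49918578, plus strand): cctctCGTGGCGAACTCGGATTGGgccata
HERPUD1 (chr16:56932016-56932045, plus strand): cggacgccgATTGGGCCACGttgggagagt
SDF2L1 (chr22:21642105-21642134, plus strand): cctcggaagCGTGGACCAATcaaaaccctc
The elements ended 33 (XBP1), 61 (CRELD2), 106 (HERPUD1) and 177 (SDF2L1) bases before RefSeq's start.

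The core of the hypoxia-inducible factor (HIF) site, ACGTG, was a common word by comparison and stood in 5900 promoters (21.6%). It was found in XBP1, HERPUD1, PDIA4 and ERO1A. In ERO1A and PDIA4, shown because they act in the same disulfide pathway, the match is on the opposite strand and its reverse complement is in capitals. It lay 109 bases before RefSeq's start of ERO1A and 211 before that of PDIA4. RefSeq's starts are not always those of the gene spans given below, which come from GENCODE. By those spans the sites shown for ERO1A and CRELD2 lie inside the gene.
ERO1A (chr14:52695655-52695684, minus strand): cgggcgccgcggCACGTccacaggctgggt
PDIA4 (chr7:149028689-149028718, minus strand): aagggggcacctCACGTtagggctcggagt
HERPUD1 had 4 matches to this core, of which 1 overlapped its ERSE-II and 2 overlapped each other on opposite strands. The ATF4 core TTGCATCA stood in 252 promoters (0.923%) and among these genes in HERPUD1 alone, 168 bases before the start. TGACGTGG, the core of the unfolded protein response element, stood in 217 promoters (0.795%) and in 0 of the 10. The 5 words were not found in the windows of ERN1, EDEM1, SEL1L and MANF. A match is a run of letters, and binding was not measured.

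Levels are given as CPM, the usual unit of read counts relative to the reads of the whole library, with library sizes scaled by TMM, the trimmed mean of M-values. A gene counts as called at an adjusted p under 0.05, from the quasi-likelihood test of edgeR with p-values adjusted by Benjamini-Hochberg over the 19981 genes tested. Errors of log2 fold changes are standard errors. All 10 genes passed the filter on low counts, with 61 to 9945 reads per library. TMM factors were 1.29 to 1.32 in normoxia, 1.03 to 1.07 at 6 h, 0.910 to 0.993 at 12 h, and 0.851 and 0.539 at 24 h. They thus differed between the groups without overlap, and the pair of libraries at 24 h stood apart from each other.

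The genes did not all move alike against 0 h. ERN1, XBP1, HERPUD1, EDEM1 and SEL1L were lower at 6, 12 and 24 h, ERO1A was higher at each time, and the other 4 genes were lower at 12 h or were not called.

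At 6 h, 5 genes were called lower and 1 higher, where 27.7% of all tested genes were called lower and 25.1% higher. At 12 h, 7 were called lower and 1 higher (27.1% and 24.2% of all tested genes). At 24 h, 5 were called lower and 1 higher (31.3% and 29.9%). The median log2 fold change of the 10 genes was -0.77, -1.17 and -0.94 at 6, 12 and 24 h, beside -0.0021, -0.033 and -0.065 over all tested genes. In 5 genes every one of the 8 hypoxic libraries was below every one of the 3 normoxic libraries, a pattern held by 25.0% of tested genes, and in 1 gene (ERO1A) every one was above, as in 20.5%. The same 5 genes were called lower in all 3 comparisons (17.9% of tested genes) and ERO1A higher in all 3 (14.8%). The 3 comparisons share the same normoxic libraries. With library size in place of TMM, which moved the median of all tested genes to -0.32, -0.50 and -0.97, the counts were 7, 8 and 9 lower and 1, 0 and 0 higher, and the median of the 10 genes was -1.09, -1.65 and -1.86. Among all called genes the share higher was then 27.6%, 20% and 16.4% in place of 47.6%, 47.2% and 48.8%. That scaling put the values at 24 h of XBP1 at -1.89, HERPUD1 at -2.45 and SEL1L at -2.53, and called 4 genes more there, SDF2L1 (-1.57), CRELD2 (-1.82), MANF (-0.93) and PDIA4 (-1.04). A lower CPM in a bulk library does not tell fewer RNA copies per cell from fewer cells that carry them.

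**Figure D1:**
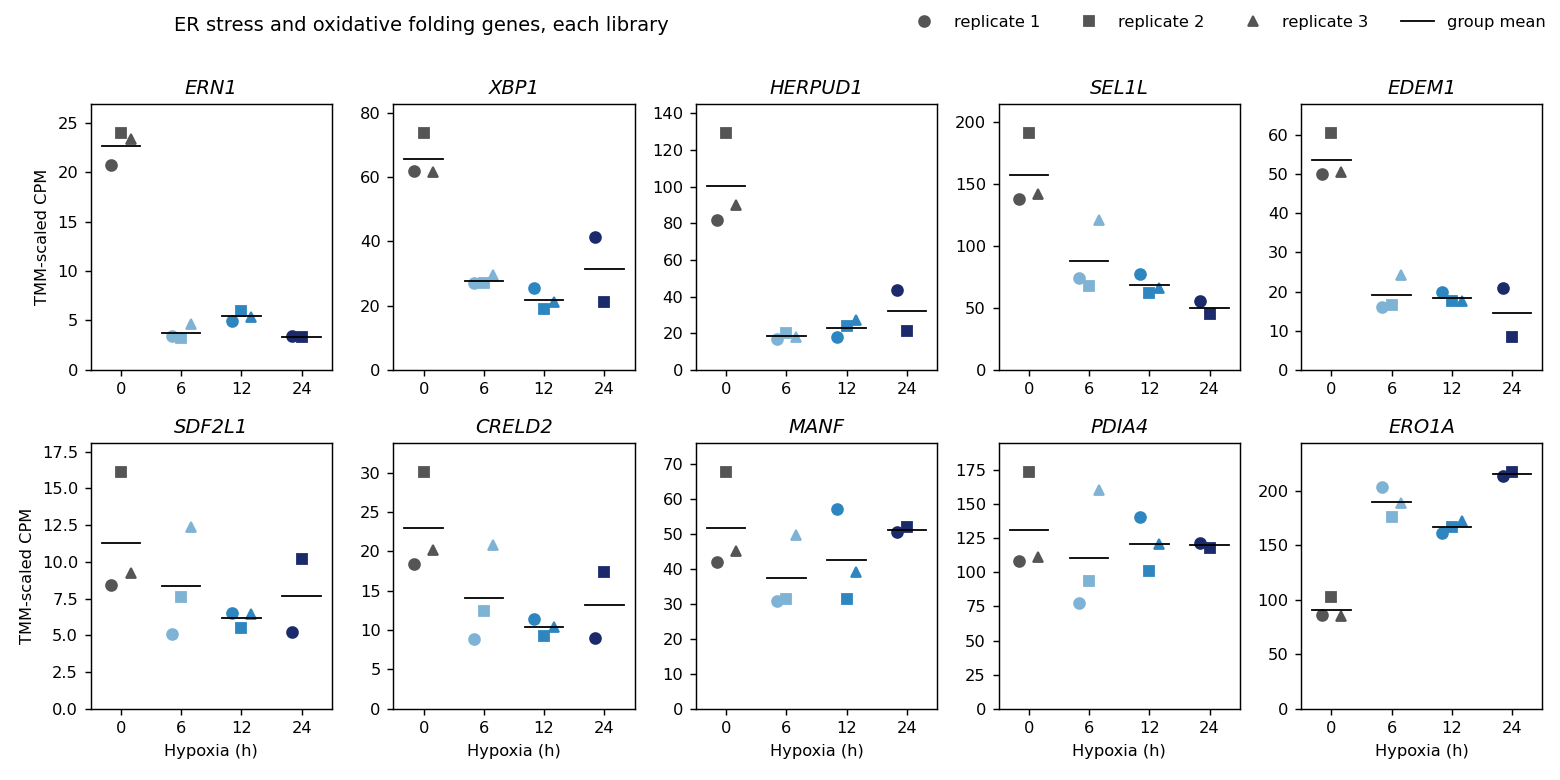
TMM-scaled CPM (vertical axes, each from 0) of the 10 genes by hours of hypoxia (horizontal axes), with 1 symbol per library, the shape giving the replicate number, and a line at the group mean. ERN1, XBP1, HERPUD1, SEL1L and EDEM1 have all 8 hypoxic libraries below the 3 normoxic ones, ERO1A has all 8 above, and in SDF2L1, CRELD2, MANF and PDIA4 the groups overlap.

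The sensor and its transcription factor come first. ERN1 (chr17:64039080-64130819, minus strand, GENCODE 44 on GRCh38) encodes IRE1, the kinase and endoribonuclease of the ER membrane. Its CPM was 20.8, 24.0 and 23.3 in normoxia, 3.42, 3.21 and 4.59 at 6 h, 4.94, 5.96 and 5.39 at 12 h, and 3.38 and 3.32 at 24 h. The lowest normoxic library was thus above every hypoxic one, and the hypoxic libraries ran from 3.21 to 5.96 CPM, highest at 12 h. The log2 fold change was -2.59 ± 0.18 at 6 h (6.02-fold lower, edgeR adjusted p = 6.9e-07), -2.06 ± 0.17 at 12 h (4.17-fold lower, adjusted p = 3.89e-06) and -2.76 ± 0.21 at 24 h (6.76-fold lower, adjusted p = 1.35e-06), the lowest of the 10 genes at 6 and 24 h. Exons of genes on the other strand cover 4.62% of its exonic length.

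XBP1 (chr22:28794555-28800597, minus strand) encodes the transcription factor whose mRNA IRE1 splices. It had 62.0, 73.7 and 61.5 CPM in normoxia, 26.9, 26.9 and 29.4 at 6 h, 25.5, 18.9 and 21.0 at 12 h, and 41.2 and 21.2 at 24 h. Normoxic and hypoxic libraries did not overlap, but the pair at 24 h lay farther apart than the libraries of any earlier time. The log2 fold change was -1.24 ± 0.21 at 6 h (adjusted p = 0.000349), -1.59 ± 0.21 at 12 h (adjusted p = 8.44e-05) and -1.07 ± 0.24 at 24 h (adjusted p = 0.002), all by edgeR. Without 24 h replicate 1 the value at 24 h was -1.69, and without 24 h replicate 2 it was -0.69, and XBP1 was called in both cases. XBP1P1, an annotated processed pseudogene, had 0 to 8 reads per library.

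The next genes belong to ERAD. HERPUD1 (chr16:56932142-56944864, plus strand) encodes a membrane protein that helps to assemble the degradation complex. Its CPM was 82.0, 129 and 90.1 in normoxia, then 17.0, 19.9 and 17.9 at 6 h, 18.1, 23.8 and 27.3 at 12 h, and 43.4 and 21.4 at 24 h. All hypoxic libraries were below the lowest normoxic one, and the 24 h pair was again split. The log2 fold change was -2.46 ± 0.26 (5.50-fold lower, edgeR adjusted p = 1.22e-05), -2.12 ± 0.26 (adjusted p = 4.4e-05) and -1.63 ± 0.29 (adjusted p = 0.000441) at 6, 12 and 24 h. At 24 h HERPUD1 was at -2.29 without 24 h replicate 1 and at -1.23 without 24 h replicate 2, and was called in both cases.

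EDEM1 (chr3:5187646-5219958, plus strand) encodes a lectin-like protein that steers misfolded glycoproteins to degradation. It gave 50.0, 60.5 and 50.5 CPM in normoxia, 16.2, 16.7 and 24.2 at 6 h, 20, 17.7 and 17.6 at 12 h, and 20.8 and 8.28 at 24 h. The highest hypoxic library was below the lowest normoxic one. The log2 fold change was -1.49 ± 0.27, -1.54 ± 0.27 and -1.87 ± 0.32 at the 3 times (edgeR adjusted p = 0.000537, 0.000525 and 0.000273). At 24 h it was -2.75 without 24 h replicate 1 and -1.38 without 24 h replicate 2, with EDEM1 called in both cases. Exons of genes on the other strand cover 9.37% of its exonic length, and whether the counting used strand is not given in the sources used here.

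SEL1L (chr14:81471547-81533853, minus strand) encodes the adaptor that holds the ubiquitin ligase SYVN1 in the ERAD complex. Its values were 138, 191 and 142 CPM in normoxia, 74.2, 67.4 and 121 at 6 h, 77.0, 61.9 and 66.5 at 12 h, and 55.5 and 44.8 at 24 h. The hypoxic libraries were all below the normoxic ones, with 6 h replicate 3 closest to them. SEL1L fell by 0.84 ± 0.22, 1.20 ± 0.22 and 1.64 ± 0.26 on the log2 scale at 6, 12 and 24 h (edgeR adjusted p = 0.00613, 0.000766 and 0.000155).

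SDF2L1, CRELD2 and MANF encode soluble ER proteins, of which SDF2L1 works with the HSP70 chaperone of the ER and MANF is partly secreted. SDF2L1 (chr22:21642302-21644299, plus strand) had 8.46, 16.1 and 9.26 CPM in normoxia, 5.06, 7.62 and 12.3 at 6 h, 6.53, 5.51 and 6.42 at 12 h, and 5.22 and 10.2 at 24 h. Only the 12 h libraries lay wholly below normoxia. At 12 h the log2 fold change was -0.87 ± 0.34 (edgeR adjusted p = 0.0473), and -0.42 ± 0.34 at 6 h and -0.56 ± 0.39 at 24 h were not called. The 24 h value was -0.20 without 24 h replicate 1 and -1.13 without 24 h replicate 2, not called in either case. The call at 12 h was lost without normoxia replicate 2 (-0.53, adjusted p = 0.236), normoxia replicate 3 (-1.01, 0.053), 6 h replicate 2 (-0.87, 0.0637), or 12 h replicate 1 (-0.91, 0.0899), 2 (-0.83, 0.117) or 3 (-0.90, 0.0928), and with limma-voom (-0.81, 0.0608).

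CRELD2 (chr22:49918167-49927540, plus strand) encodes a protein with EGF-like domains that is itself induced by ER stress. It had 18.4, 30.1 and 20.2 CPM in normoxia, 8.82, 12.5 and 20.8 at 6 h, 11.4, 9.28 and 10.3 at 12 h, and 8.99 and 17.3 at 24 h. Of the hypoxic libraries 6 h replicate 3 alone reached the normoxic range. CRELD2 was lower at 12 h, at -1.15 ± 0.31 on the log2 scale (2.21-fold, edgeR adjusted p = 0.00884), while -0.70 ± 0.31 at 6 h (adjusted p = 0.0738) and -0.81 ± 0.36 at 24 h (adjusted p = 0.0666) were not called. CRELD2 was called at 6 h without 6 h replicate 3 (-1.10, adjusted p = 0.0106) or without either 24 h library (-0.71 in both cases, adjusted p = 0.0308 and 0.0336), and at 24 h, where it was -0.46 without 24 h replicate 1 and not called, without 24 h replicate 2 (-1.37, adjusted p = 0.0145) or without 6 h replicate 1 (-0.81, 0.0467) or 3 (-0.80, 0.0358).

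MANF (chr3:51385291-51389397, plus strand) had 42.1, 67.9 and 45.1 CPM in normoxia, 30.9, 31.3 and 49.9 at 6 h, 57.4, 31.5 and 39.1 at 12 h, and 50.6 and 52.0 at 24 h. The groups overlapped at every time. No comparison with 0 h was called, with log2 fold changes of -0.47 ± 0.25, -0.28 ± 0.25 and -0.01 ± 0.28 (edgeR adjusted p = 0.14, 0.379 and 0.975). Without 6 h replicate 3 the value at 6 h was -0.73 and was called (adjusted p = 0.0378). Without normoxia replicate 2 the value at 24 h was 0.23, with the opposite sign (adjusted p = 0.528).

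The last pair serves disulfide formation. PDIA4 (chr7:149003062-149028662, minus strand) encodes a large protein disulfide isomerase. Its CPM was 108, 174 and 112 in normoxia, 77.9, 94.0 and 160.2 at 6 h, 141, 101 and 121 at 12 h, and 122 and 118 at 24 h. Normoxia replicate 2 was the highest of all libraries and 6 h replicate 3 the next. PDIA4 was called at no time, with log2 fold changes of -0.24 ± 0.26, -0.12 ± 0.26 and -0.13 ± 0.29 (edgeR adjusted p = 0.441, 0.723 and 0.705). Without normoxia replicate 2 these values were 0.00 at 6 h, 0.13 at 12 h and 0.11 at 24 h, and without 6 h replicate 3 the value at 6 h was -0.61 and called (adjusted p = 0.0426).

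ERO1A (chr14:52639915-52695900, minus strand) encodes the oxidase that passes electrons from the disulfide isomerases to oxygen. It had 86.1, 102.4 and 84.9 CPM in normoxia, 204, 176 and 188 at 6 h, 162, 167 and 173 at 12 h, and 214 and 218 at 24 h. Every hypoxic library lay above every normoxic one. The log2 fold change was 1.06 ± 0.13 at 6 h (2.08-fold, edgeR adjusted p = 3.2e-05), 0.87 ± 0.13 at 12 h (1.83-fold, adjusted p = 0.000165) and 1.24 ± 0.14 at 24 h (2.37-fold, adjusted p = 1.37e-05). With library size in place of TMM, ERO1A stayed higher at 0.74, 0.40 and 0.32 but was called at 6 h only (adjusted p = 0.00497, 0.0762 and 0.165). Exons of genes on the other strand cover 7.7% of its exonic length.

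**Figure D2:**
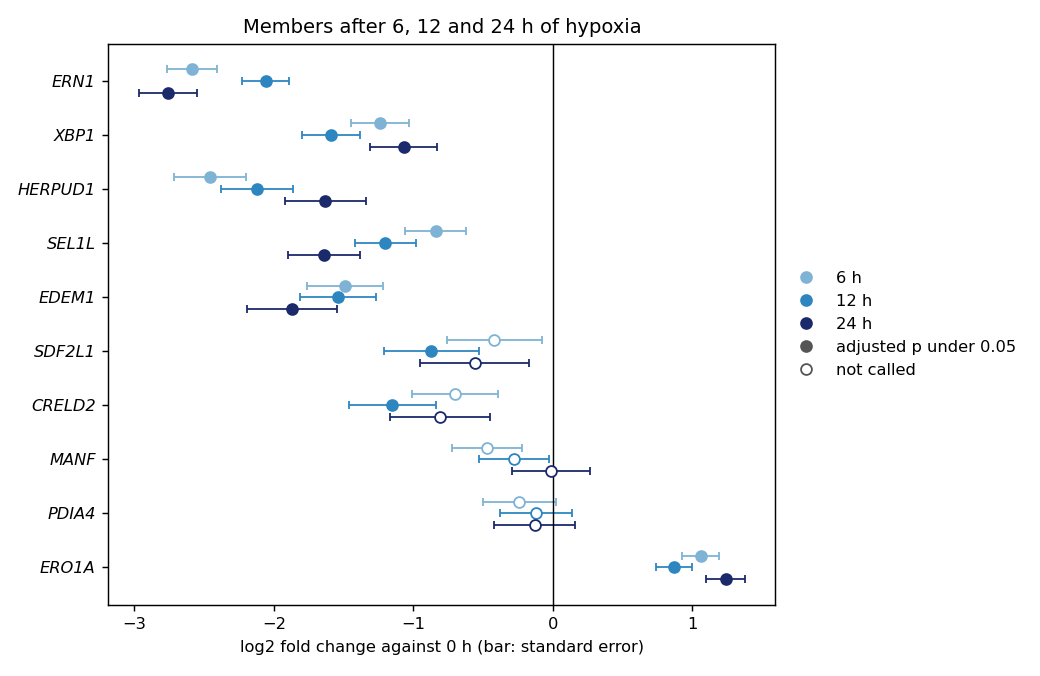
log2 fold change against 0 h (horizontal axis) of the 10 genes (vertical axis) at 6, 12 and 24 h, with bars of 1 standard error, filled points where the edgeR adjusted p is under 0.05 and open points where it is not. ERN1 and HERPUD1 lie farthest left at 6 h (-2.59 and -2.46), MANF and PDIA4 are open at all times, and ERO1A alone lies to the right of 0.

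Between hypoxic times few of the 10 genes were called. From 6 to 12 h, 0 of the 10 genes were called by edgeR (4.95% of all tested genes were), 0 by limma-voom and DESeq2 and 2 (XBP1 and ERN1) by limma-voom with sample weights, and 1 had an unadjusted p under 0.05 in edgeR. That gene was ERN1, at 0.53 ± 0.17 (edgeR adjusted p = 0.101), with all 3 libraries at 12 h above those at 6 h. ERN1 was called there without 6 h replicate 3 (0.71, adjusted p = 0.0357), without 24 h replicate 1 (0.52, 0.0404) or 2 (0.54, 0.0367), and without both 24 h libraries (0.50, 0.0465), the last an alternative chosen after the data were seen.

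From 12 to 24 h 1 gene was called (28.4% of tested genes), and from 6 to 24 h 2 genes (42.4%). ERN1 was lower at 24 h than at 12 h, at -0.70 ± 0.20 (edgeR adjusted p = 0.0236), a call lost without 12 h replicate 2 (-0.63, 0.0763), 12 h replicate 3 (-0.70, 0.0618) or 24 h replicate 2 (-0.70, 0.0702). HERPUD1 was higher at 24 h than at 6 h, at 0.83 ± 0.28 (edgeR adjusted p = 0.0294). Without 24 h replicate 1 that value was 0.20 (adjusted p = 0.548) and without 24 h replicate 2 it was 1.25 (adjusted p = 0.00178), and the call was also lost without 6 h replicate 1 (0.78, 0.0816), 2 (0.89, 0.0528) or 3 (0.82, 0.0664). SEL1L was lower at 24 h than at 6 h, at -0.80 ± 0.25 (edgeR adjusted p = 0.0209), and not called without 6 h replicate 3 (-0.50, 0.0682) or 24 h replicate 2 (-0.66, 0.104). All 3 calls (ERN1, HERPUD1 and SEL1L) were also lost by limma-voom with sample weights (adjusted p = 0.466, 0.375 and 0.374) and in edgeR with only the libraries of the 2 times (adjusted p = 0.1, 0.0951 and 0.0815), and that of HERPUD1 by limma-voom (0.76, 0.0538) and with library size alone (0.34, 0.49). ERO1A had its highest mean at 24 h (215.5 ± 2.83 CPM, SD, n = 2), then 6 h (189.6 ± 13.7, n = 3) and 12 h (167 ± 5.55, n = 3), but no neighbours in that order were called different by edgeR. DESeq2 called the step from 12 to 24 h (0.40, adjusted p = 0.0117), which edgeR put at 0.37 ± 0.14 (adjusted p = 0.0665).

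The 2 libraries at 24 h disagreed about 5 of the 10 genes. XBP1 (1.95-fold), HERPUD1 (2.03-fold) and EDEM1 (2.52-fold) were higher in replicate 1, and SDF2L1 (1.95-fold) and CRELD2 (1.93-fold) in replicate 2. ERN1, MANF, PDIA4 and ERO1A differed by at most 1.03-fold between the pair, and SEL1L by 1.24-fold. Spreads of this size were not particular to 24 h. At 6 h the highest library was 2.44-fold the lowest in SDF2L1, 2.365-fold in CRELD2 and 2.058-fold in PDIA4. Leaving out 1 of the 2 libraries at 24 h, but not the other, turned the sign of the 24 h against 12 h value of 5 genes. These were XBP1 (-0.07 without replicate 1), HERPUD1 (-0.14 without replicate 1), EDEM1 (0.16 without replicate 2), SDF2L1 (-0.25 without replicate 2) and CRELD2 (-0.22 without replicate 2). Replicate 1 alone put XBP1 (0.91, edgeR adjusted p = 0.0046) and HERPUD1 (0.90, adjusted p = 0.0255) above 12 h, and replicate 2 alone put EDEM1 below it (-1.18, adjusted p = 0.00198). The part of the scaling of these libraries in the values was not tested.

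**Figure D3:**
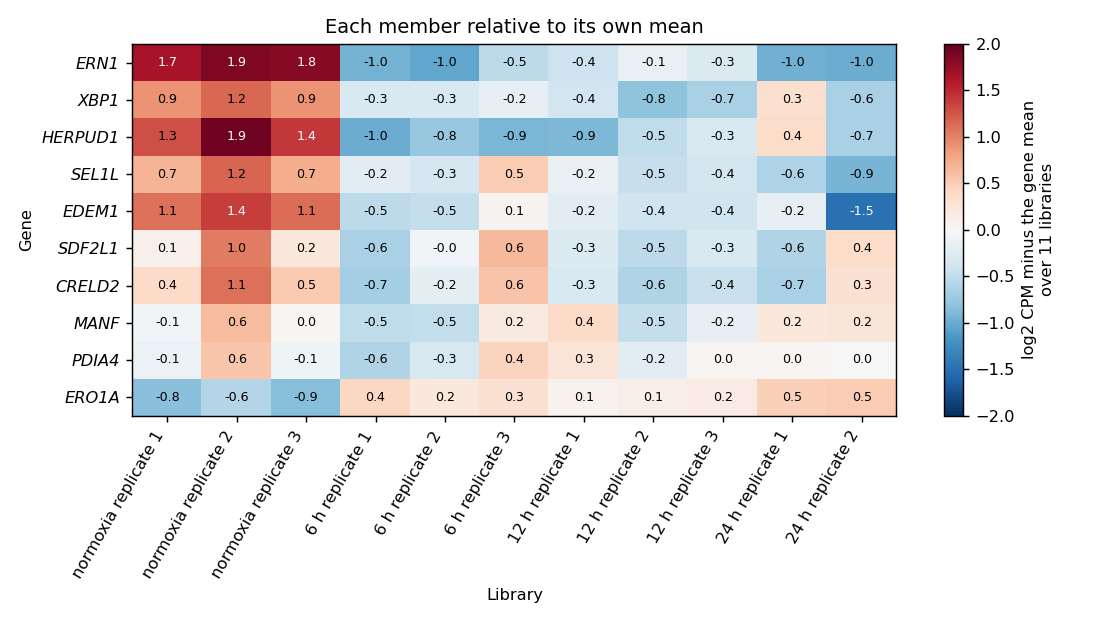
log2 CPM of the 10 genes (rows) in the 11 libraries (columns), each minus the gene's mean over all libraries, with the value in the cell and red above and blue below the mean. Normoxia replicate 2 is the highest normoxic library in all 10 rows, 6 h replicate 3 is the highest 6 h library in 8, and 24 h replicate 2 is lowest for EDEM1 but above the mean for SDF2L1 and CRELD2.

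Within the normoxic and the 6 h group, 1 library stood above the others in most of these genes at once. Normoxia replicate 2 had the highest normoxic value of all 10 genes, and 6 h replicate 3 the highest 6 h value of 8, all but HERPUD1 and ERO1A. HSPA5, which encodes the HSP70 chaperone BiP of the ER and is no member of the group, showed the same, with 3662 CPM in normoxia replicate 2 against 1786 and 1968, and 1820 in 6 h replicate 3 against 810.3 and 887. SDF2L1 and CRELD2 kept the closest company of any pair, with Pearson's r of 0.97 over the log2 CPM of all 11 libraries and 0.996 over the 8 hypoxic ones. MANF and PDIA4 came next among the hypoxic libraries, with 0.876 and 0.833. ERN1 and ERO1A ran opposite to each other, with -0.969 and -0.749. XBP1 and ERN1 had 0.818 over all libraries and -0.532 over the hypoxic ones. These correlations describe 11 libraries that share their scaling and fall into a normoxic and a hypoxic cluster, and no test was made of them.

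Levels of different genes were compared per kilobase of the exons annotated for each gene, a length that counts rarely used exons too. In normoxia PDIA4 was highest at 39.8 ± 11.2 CPM per kb (SD, n = 3), followed by MANF (24.2 ± 6.58), XBP1 (21.7 ± 2.28), HERPUD1 (19.9 ± 5.00), SEL1L (16.4 ± 3.13), ERO1A (12.1 ± 1.3), SDF2L1 (10.7 ± 3.98), EDEM1 (7.97 ± 0.880), CRELD2 (4.44 ± 1.22) and ERN1 (1.18 ± 0.0888). MANF, XBP1, HERPUD1 and SEL1L each lay within the larger SD of their neighbour in this order, as did ERO1A, SDF2L1 and EDEM1, so the order inside these runs is not resolved. In hypoxia PDIA4 had the highest mean, with 33.6 ± 13.2, 36.7 ± 5.98 and 36.3 ± 0.791 CPM per kb at 6, 12 and 24 h, and ERO1A the next, with 25.1 ± 1.82, 22.1 ± 0.736 and 28.5 ± 0.375. PDIA4 and ERO1A lay within the larger SD of each other at 6 h, as did ERO1A and MANF (19.9 ± 6.22) at 12 h, so these neighbours are not resolved either. ERO1A made up 6.81% to 8.44% of the summed level of the 10 genes in the normoxic libraries and 17.5% to 28.7% in the hypoxic ones. HERPUD1 went the other way, from 12.0% to 12.8% in normoxia to 2.49% to 6.76% in hypoxia.

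A ratio of a gene to its paralogue or partner within 1 library does not depend on the scaling between libraries. Such log2 ratios of reads per kb were compared between the 8 hypoxic and the 3 normoxic libraries by an exact two-sided permutation test with Benjamini-Hochberg adjustment over 10 pairs. The smallest p this design allows is 0.0121.

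Within the oxidase family, ERO1A rose against ERO1B, its paralogue. The log2 ratio was 5.41, 4.43 and 5.18 in normoxia and 5.93 to 7.82 in hypoxia, so 8 of 8 hypoxic libraries were above all normoxic ones, with a difference of 1.84 (exact permutation p = 0.0121, adjusted p = 0.0242). ERO1B itself was called lower at 12 h only, at -1.19 ± 0.38 by edgeR (adjusted p = 0.0196), with 50 to 363 reads per library. PDIA4 fell by 0.69 against PDIA6, another disulfide isomerase, from -0.33 to -0.10 in normoxia to -1.40 to -0.76 in hypoxia, 8 of 8 below (exact permutation p = 0.0121, adjusted p = 0.0242). PDIA6 was called higher at 6 and 12 h (0.55 ± 0.17 and 0.54 ± 0.17, edgeR adjusted p = 0.0176 and 0.0191). Exons on the other strand cover 25.2% of PDIA6, so its counts may hold reads of ATP6V1C2 if strand was not used.

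Among the chaperone partners, SDF2L1 against its paralogue SDF2 turned from 0.80, 1.61 and 0.80 in normoxia to -0.99 to 0.15 in hypoxia, a fall of 1.67 with 8 of 8 libraries below (exact permutation p = 0.0121, adjusted p = 0.0242). SDF2 was called higher at all 3 times, at 0.98 ± 0.18, 0.97 ± 0.18 and 1.34 ± 0.20 (edgeR adjusted p = 0.000797, 0.000981 and 0.000118). The ratio of CRELD2 to CRELD1 moved by 0.34, with 4 of 8 hypoxic libraries above normoxia (exact permutation p = 0.291, adjusted p = 0.291). CRELD1 shares part of its exonic length with PRRT3 on the other strand. The ratio of MANF to its paralogue CDNF was higher by 0.58, with 6 of 8 above (exact permutation p = 0.0364, adjusted p = 0.0455), though MANF itself was called at no time. The mean ratio was 5.26, 5.40 and 4.77 at 6, 12 and 24 h beside 4.61 in normoxia. Both 24 h libraries (4.65 and 4.90) lay within the normoxic 4.36 to 4.93. CDNF itself had 1.54 to 1.76 CPM in normoxia, 0.504 to 0.947 at 6 and 12 h, and 1.58 and 1.36 at 24 h. It had only 17 to 70 reads per library, and with a pseudocount of 5 reads in place of 0.5 the difference was 0.45 (adjusted p = 0.0909).

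In the degradation pathway, EDEM1 fell against both of its paralogues. Its ratio to EDEM3 dropped by 1.71, from 2.08 to 2.36 in normoxia to -0.17 to 1.5 in hypoxia, 8 of 8 below (exact permutation p = 0.0121, adjusted p = 0.0242). The ratio of EDEM1 to EDEM2 dropped by 0.86 (7 of 8 below, exact permutation p = 0.0242, adjusted p = 0.0404), and it was -0.96 on average at 6 h, -1.69 at 12 h and -2.89 at 24 h beside -0.85 in normoxia. EDEM2 itself was lower at 6 h (-1.39 ± 0.16) and 12 h (-0.70 ± 0.16) and at 0.02 ± 0.18 at 24 h was not called (edgeR adjusted p = 2.34e-05, 0.0031 and 0.945). With the 6 and 12 h libraries alone the EDEM1 to EDEM2 difference was -0.47 (adjusted p = 0.0595).

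HERPUD1 dropped by 1.01 against HERPUD2 (7 of 8 below, exact permutation p = 0.0364, adjusted p = 0.0455), although HERPUD2 was itself called lower at 6, 12 and 24 h (-1.41 ± 0.15, -0.87 ± 0.14 and -1.06 ± 0.17, edgeR adjusted p = 1.04e-05, 0.000397 and 0.000168). The ratio of SEL1L to its ligase partner SYVN1 differed by -0.31, with 6 of 8 hypoxic libraries below all normoxic ones and 2 above (exact permutation p = 0.194, adjusted p = 0.215), and SYVN1 was called lower at each time (-0.61 ± 0.14, -0.68 ± 0.14 and -1.62 ± 0.17, edgeR adjusted p = 0.00328, 0.00181 and 8.3e-06). XBP1 dropped by 1.48 against ATF6, the sensor that is itself a transcription factor, from 2.26 to 2.49 in normoxia to 0.35 to 1.37 in hypoxia, 8 of 8 below (exact permutation p = 0.0121, adjusted p = 0.0242). ATF6 was not called at any time, with log2 fold changes of 0.06 ± 0.19, 0.34 ± 0.19 and 0.00 ± 0.21. ERN2, the paralogue of ERN1, had 0 to 7 reads per library and its ratio was not tested.

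The adjusted p-values of MANF to CDNF, HERPUD1 to HERPUD2 and EDEM1 to EDEM2 passed 0.05 when single libraries were left out, reaching 0.167, 0.167 and 0.127. With any normoxic library left out the smallest possible p is 0.0444, and no pair stayed under 0.05 after adjustment.

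**Figure D4:**
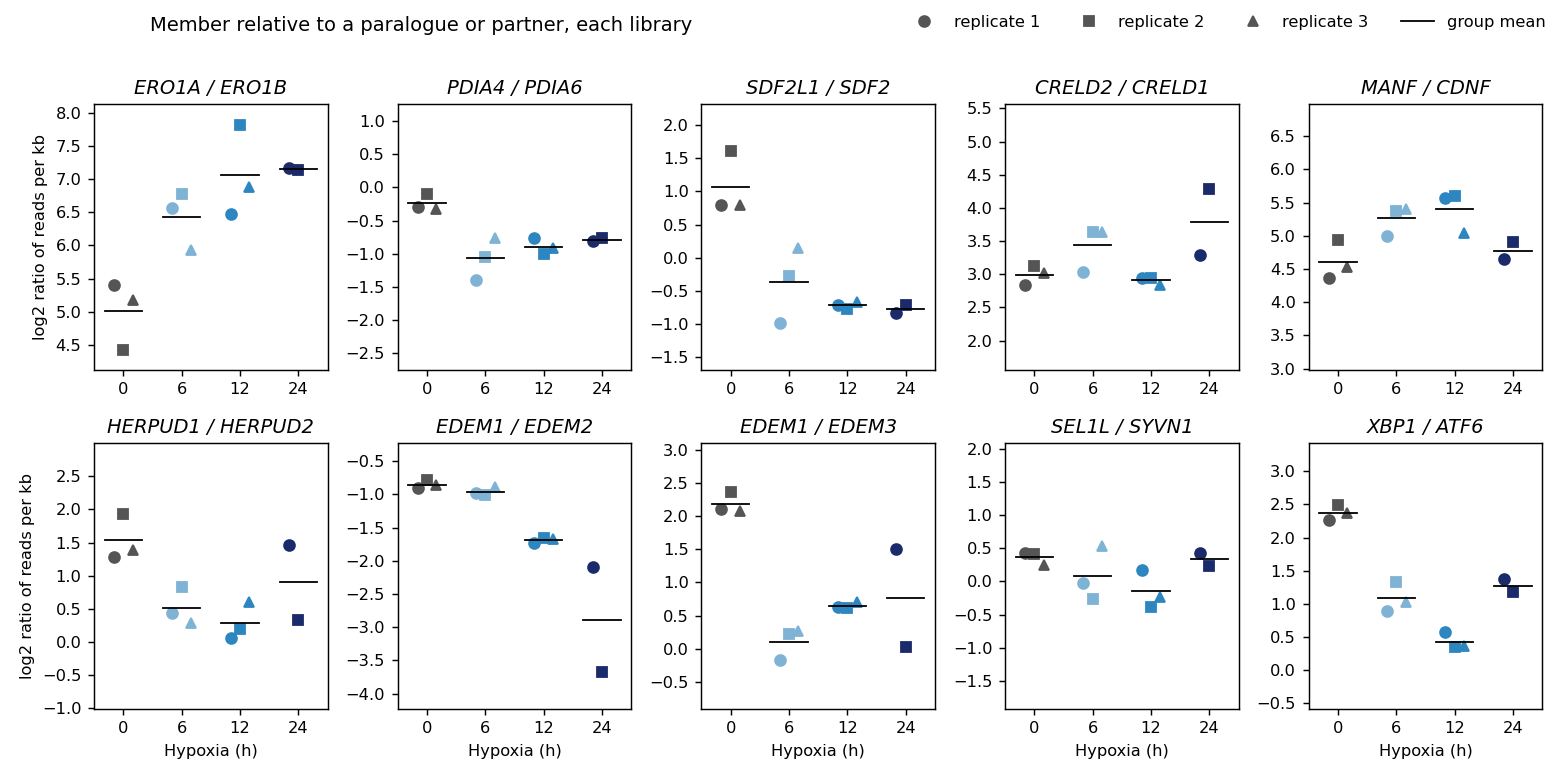
log2 ratio of reads per kb of a gene to its paralogue or partner (vertical axes, each spanning 4 log2 units) by hours of hypoxia (horizontal axes), 1 symbol per library with a line at the group mean, for the 10 tested pairs. The ratios of ERO1A to ERO1B lie higher in all 8 hypoxic libraries, and those of PDIA4 to PDIA6, SDF2L1 to SDF2, EDEM1 to EDEM3 and XBP1 to ATF6 lie lower in all 8. Those of SEL1L to SYVN1, CRELD2 to CRELD1, MANF to CDNF, HERPUD1 to HERPUD2 and EDEM1 to EDEM2 overlap.

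The rest of the pathway was described by 5 lists, which hold none of the 10 genes. Beside their counts stand the shares of all tested genes at 6, 12 and 24 h. These were 27.7%, 27.1% and 31.3% called lower and 25.1%, 24.2% and 29.9% called higher. No list was tested against these shares. Of 15 tested sensors and transcription factors of the unfolded protein response, 8, 6 and 7 were called lower and 4, 3 and 2 higher at 6, 12 and 24 h (median log2 fold change -0.46, -0.17 and -0.43). DDIT3, which encodes the stress factor CHOP, was the lowest, at -5.85 ± 0.44, -3.03 ± 0.37 and -2.73 ± 0.43 (edgeR adjusted p = 1.24e-06, 4.81e-05 and 0.000176), though exons on the other strand cover 31.6% of it. CREB3L2, an ER-bound transcription factor, was lower (-1.47 ± 0.16, -1.45 ± 0.16 and -2.59 ± 0.20) and its relative CREB3 higher (0.98 ± 0.12, 1.13 ± 0.12 and 1.79 ± 0.13), with edgeR adjusted p of at most 4.05e-05 for both.

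Of 24 ER chaperones and cofactors, 6, 6 and 8 were called higher and 5 lower at each time (median 0.12, 0.10 and 0.10). The calls higher were near the shares of all tested genes, and the calls lower were under them. HSPA5 was lower at -1.08 ± 0.37, -1.24 ± 0.37 and -1.48 ± 0.43 (edgeR adjusted p = 0.0256, 0.0138 and 0.00957), and CRELD1 at -1.17 ± 0.24, -1.05 ± 0.24 and -1.67 ± 0.29. FKBP14, a prolyl isomerase of the ER, was higher at 1.68 ± 0.13, 1.13 ± 0.13 and 1.05 ± 0.15 (edgeR adjusted p = 1.92e-06, 3.56e-05 and 6.21e-05).

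Of 23 genes of oxidative folding, 10, 10 and 12 were called higher and 2, 5 and 3 lower (median 0.21, 0.37 and 0.54). Beside ERO1A, QSOX1, another thiol oxidase, was higher at 1.75 ± 0.14, 1.69 ± 0.14 and 1.67 ± 0.15 (edgeR adjusted p = 2.11e-06, 4.24e-06 and 3.68e-06). VKORC1, the vitamin K epoxide reductase, was higher at 1.18 ± 0.32, 1.38 ± 0.33 and 2.62 ± 0.36, but exons on the other strand cover 58.0% of it. TMX4, a membrane-bound thioredoxin-like protein, was lower at -1.24 ± 0.17, -1.03 ± 0.17 and -1.15 ± 0.20 (edgeR adjusted p = 8.79e-05, 0.000415 and 0.000331). Without normoxia replicate 1 the calls of this list were 5 higher and 2 lower at 6 h and 5 higher and 4 lower at 12 h, and without normoxia replicate 3 also 5 and 4 at 12 h. PDIA2, a disulfide isomerase, was called lower too, on 23 to 37 reads per normoxic library and 10 or fewer in each hypoxic one.

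Of 31 ERAD genes, 11, 9 and 12 were called higher and 9, 8 and 6 lower (median 0.02, 0.03 and 0.30). The calls lower were near the share of all tested genes at 6 and 12 h and under it at 24 h. RNF5, a ubiquitin ligase of the ER membrane, was higher at 0.53 ± 0.13, 0.77 ± 0.13 and 1.42 ± 0.15, as was CCDC47 at 1.21 ± 0.13, 0.83 ± 0.13 and 0.64 ± 0.15, both with edgeR adjusted p of at most 0.00498. HERPUD2 and SYVN1, the partners of HERPUD1 and SEL1L described above, were the lowest on average among those called lower at all 3 times. Of 23 genes of the translocon and signal peptidase, 14, 12 and 16 were higher and 0, 2 and 2 lower (median 0.51, 0.49 and 0.90). SEC61G, the small subunit of the translocon, was higher at 1.64 ± 0.20, 1.65 ± 0.20 and 2.94 ± 0.22, and SRPRB, a subunit of the receptor for the signal recognition particle, at 1.39 ± 0.17, 1.42 ± 0.17 and 1.91 ± 0.18, with edgeR adjusted p of at most 4.41e-05.

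These medians depend on the scaling. With library size in place of TMM the medians of the chaperones (-0.20, -0.38 and -0.79), of oxidative folding (-0.11, -0.10 and -0.36), of ERAD (-0.30, -0.44 and -0.58) and of the translocon at 24 h (-0.06) were below 0, while the medians of all tested genes were -0.32, -0.50 and -0.97. The calls under that scaling were 2, 2 and 0 higher and 6, 7 and 14 lower for the chaperones, 4, 3 and 6 higher and 4, 7 and 9 lower for oxidative folding, 2, 0 and 1 higher and 13, 14 and 15 lower for ERAD, and 7, 4 and 7 higher and 1, 4 and 6 lower for the translocon. For the sensors they were 3, 1 and 1 higher and 9, 7 and 11 lower. The medians of the first 3 of these lists, and of the translocon at 24 h, lay above that of all tested genes at the times given, and those of the sensors (-0.78, -0.63 and -1.30) below it.

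**Figure D5:**
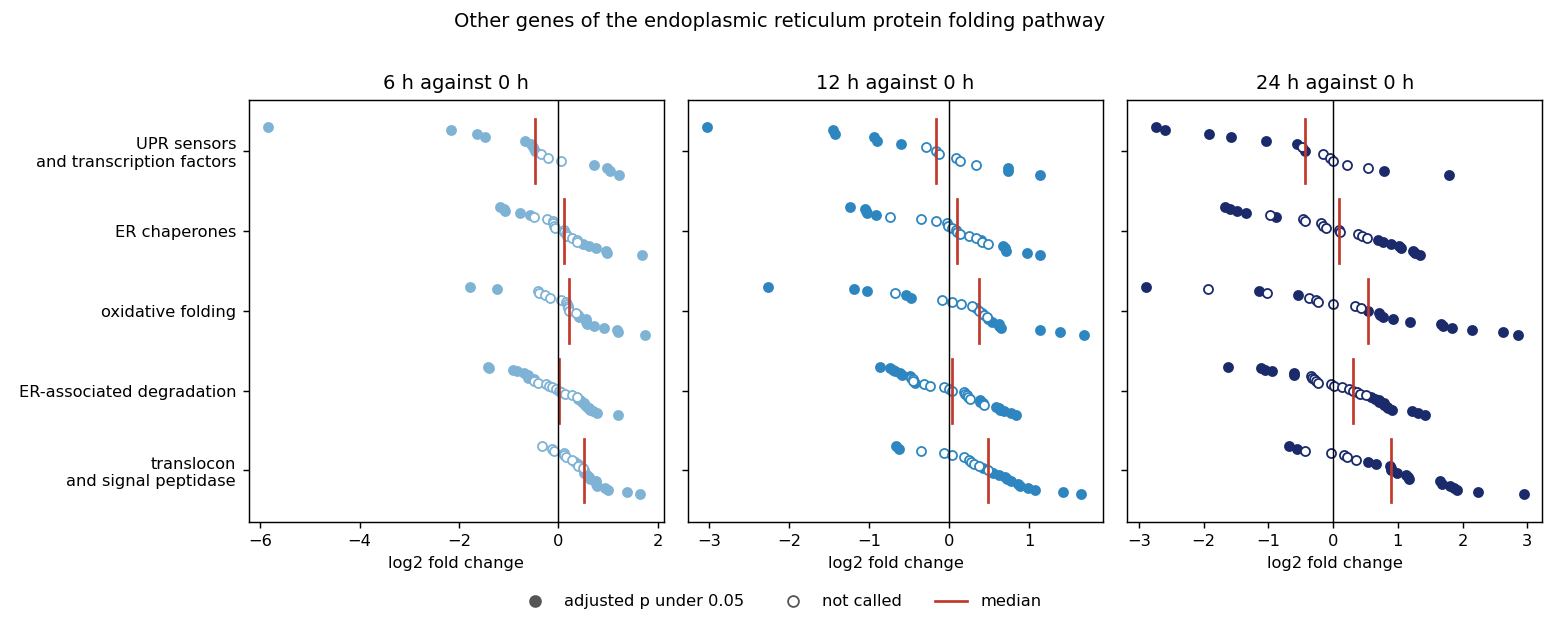
log2 fold change against 0 h (horizontal axes) of the tested genes of the 5 pathway lists (rows) at 6, 12 and 24 h (panels), with filled points where the edgeR adjusted p is under 0.05, open points where it is not, and a red line at each list's median. The medians of the translocon list (0.51, 0.49 and 0.90) lie farthest right and those of the sensors (-0.46, -0.17 and -0.43) left of 0, with DDIT3 as the lowest point at 6 h (-5.85).

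The genes whose log2 CPM ran most like each of the 10 over the 11 libraries were sought among 13929 tested genes with a symbol and a mean of at least 1 CPM. Among the nearest, ERN1 ran close to IBTK (Pearson's r 0.992) and GOLGA2 (0.991), XBP1 to TBRG1 (0.981), HERPUD1 to ZSCAN31 (0.975) and STAT5A (0.973), EDEM1 to ARHGEF40 (0.994) and ZMYM3 (0.989), and SEL1L to LINC00205 (0.978) and STAT2 (0.978). ERO1A ran with DKK1 (0.992) and SLC36A4 (0.989). The nearest genes of the other members were less close, with LARP6 (0.909) for SDF2L1, BCKDHB (0.948) and SLC33A1 (0.939) for CRELD2, AMDHD1 (0.923) and NMRK1 (0.905) for MANF, and ARL15 (0.909) and KRT75 (0.895) for PDIA4. These values share the normoxic to hypoxic step of the 11 libraries.

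Between 27496009 and 49488345 reads per library were counted. The 8 markers of basal epithelial cells had a summed level of 12801 to 16265 CPM in normoxia and, in hypoxia, of 20346 to 26792 after 6 h, 31593 to 35273 after 12 h, and 31123 to 57753 after 24 h. Luminal markers summed to 232 to 262 CPM in normoxia and 622 to 1799 in hypoxia, mostly from KRT8 and KRT18, while KLK3 and KLK2 had 0 or 1 read in every library. Stromal markers summed to 48.6 to 61.9 CPM in normoxia and 29.2 to 47.1 in hypoxia, and immune and endothelial markers to at most 3.89 CPM. The markers of a list did not all move alike against 0 h. Of 8 basal markers, 4, 5 and 5 were called higher at 6, 12 and 24 h, and 2 lower at each time. Of 5 tested luminal markers, 3, 3 and 2 were called higher and 1 lower at each time. Of 2 tested immune and endothelial markers, 1 was called higher and 1 lower at each time. Of 2 tested stromal markers, 0, 2 and 1 were called lower and 0 higher. The part of these markers in the values of the 10 genes was not tested.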

How the data were processed

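RNA longer than 200 nucleotides from RWPE1 cells had been made into libraries with a stranded kit in a single batch and read as single ends. Per the labels and methods, the authors trimmed reads with Trimmomatic, aligned them with STAR to GRCh38 with Ensembl annotation and counted reads per gene with featureCounts. The deposited values are these raw counts, 1 column per library, and 0 columns were left unmatched. The strand setting and the handling of reads with several matches are not given in the sources used here. All values given here were computed anew from these counts. The authors themselves went on to filter low counts, scale with TMM and voom, and test with limma.

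Symbols, positions and exonic lengths came from GENCODE 44. filterByExpr (minimum count 10, minimum total 15) kept 19981 of 60676 genes. All 11 libraries were fitted in edgeR (4.0.16, R 4.3.3) with TMM factors and time as the only factor, glmQLFit and glmQLFTest, and Benjamini-Hochberg adjustment, calling at 0.05. The biological coefficient of variation was 19.6%. The standard error is the absolute log2 fold change over the square root of F. log2 CPM used a prior count of 2, and paralogue ratios a pseudocount of 0.5 reads. The 10 genes, the lists, the pairs and the tests were chosen with earlier results of these data known.

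Named genes were the 10 members, their paralogues and partners, the 2 highest and 2 lowest of each list called in the same direction at all 3 times, and the 2 genes most correlated with each member, of which some are not reported here. Alternatives exchanged the test (limma 3.58.1 voom with and without sample weights, DESeq2 1.42.0), the scaling, the filter, the libraries fitted, a replicate block and each library in turn, and leaving out both 24 h libraries was added after the data were seen. In simulated counts of 19102 genes edgeR found 82 (6 h), 82 (12 h) and 74 (24 h) of the 92 genes given a log2 change of 2. It found 35, 44 and 32 of the 93 given a change of 1, and wrongly called 7, 8 and 4 of 18917 others. The changed genes were a far smaller part of all genes than were called in the data. Their changes were the same at every hypoxic time and as often up as down. These rates may therefore not carry over to the data. No permutation p is printed for single genes, since 3 against 3 libraries reach 0.1 at best. Promoter windows came from RefSeq (GRCh38.p14).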

Additional observations from a re-analysis of the deposited data

Results flagged for a closer look

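In 3 cases a gene of the group differed between hypoxic times by a direct test of that difference in edgeR, adjusted by Benjamini-Hochberg. ERN1 was lower at 24 h than at 12 h, at -0.70 (adjusted p = 0.0236), with 2 of 2 libraries at 24 h below all 3 at 12 h. HERPUD1 was higher at 24 h than at 6 h, at 0.83 (adjusted p = 0.0294), with 2 of 2 libraries above all 3, and SEL1L was lower, at -0.80 (adjusted p = 0.0209), with 2 of 2 below all 3. Each call was lost when some single libraries were left out, with sample weights, with only the libraries of the times compared, and with a replicate block, and that of HERPUD1 also by limma-voom and with library size alone.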

How the results depend on the processing

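Over 6 comparisons and all alternatives the 10 genes gave 1230 log2 fold changes, of which 1125 kept direction and call, 29 lost the call, 35 gained one and 41 changed sign. The calls of ERN1, XBP1, HERPUD1, EDEM1 and SEL1L against 0 h held under every alternative, and that of ERO1A under all but library size alone. Against 0 h the number of genes called was 6 to 9 at 6 h, 7 or 8 at 12 h and 6 to 9 at 24 h. CRELD2 was called at 6 h with limma-voom with sample weights, without a filter or without both 24 h libraries, and at 24 h without a filter or with at least 10 reads in every library, and without a filter MANF was called at 6 h and SDF2L1 at 24 h. Causes were not tested. At 24 h against 0 h MANF, reported at -0.01, was 0.02 with limma-voom, 0.12 with sample weights, 0.00 with DESeq2, with median-of-ratios factors or with only the groups compared, and 0.01 with a replicate block, and PDIA4 was 0.01 with sample weights. PDIA4 at 24 h against 12 h was 0.04 with sample weights, 0.02 with DESeq2 and median-of-ratios factors and 0.05 with the replicate block. With library size alone PDIA4 was -0.03 (12 h against 6 h) and -0.48 (24 h against 6 h). MANF was then -0.17 (24 h against 12 h) and -0.15 (24 h against 6 h), and ERO1A -0.08 (24 h against 12 h) and -0.41 (24 h against 6 h). SDF2L1 was -0.22 and CRELD2 -0.20 (both 24 h against 12 h), and XBP1 -0.33 (24 h against 6 h).

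Between hypoxic times, from 6 to 12 h 2 genes were called with sample weights and 1 without both 24 h libraries. From 12 to 24 h 2 were called with DESeq2 and 0 with sample weights, with only the groups compared or with the replicate block. From 6 to 24 h 1 was called with limma-voom and 0 with the latter 3. Replicate numbers did not pair the libraries (same-numbered deviations correlated from -0.156 to 0.207), and the replicate block changed no other call than those of ERN1 from 12 to 24 h (-0.63, edgeR adjusted p = 0.0543) and, from 6 to 24 h, HERPUD1 (0.86, 0.0514) and SEL1L (-0.72, 0.0581).

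With single libraries left out in turn, there were 0 to 1, 0 to 2 and 0 to 2 genes called from 6 to 12 h, 12 to 24 h and 6 to 24 h. Values that changed sign ranged, for PDIA4, from -0.61 to 0.00, -0.24 to 0.13 and -0.26 to 0.11 at 6, 12 and 24 h against 0 h, and from -0.07 to 0.49 (6 to 12 h), -0.14 to 0.11 (12 to 24 h) and -0.09 to 0.48 (6 to 24 h). MANF ranged from -0.15 to 0.23 at 24 h against 0 h and -0.08 to 0.45 from 6 to 12 h. From 6 to 12 h EDEM1 ranged from -0.15 to 0.17. From 12 to 24 h the ranges were -0.07 to 0.91 (XBP1), -0.14 to 0.90 (HERPUD1), -0.25 to 0.70 (SDF2L1), -1.18 to 0.16 (EDEM1) and -0.22 to 0.72 (CRELD2). From 6 to 24 h they were -0.42 to 0.57 (XBP1), -0.27 to 0.02 (ERN1), -0.70 to 0.27 (SDF2L1), -1.24 to 0.12 (EDEM1) and -0.66 to 0.30 (CRELD2).

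The paralogue ratios kept their sign. A pseudocount of 5 reads ended the calls of MANF to CDNF (0.45) and HERPUD1 to HERPUD2 (-1.01), and leaving out 24 h that of EDEM1 to EDEM2 (-0.47). With 1 library left out the differences ran from 1.55 to 2.04 (ERO1A to ERO1B), -0.74 to -0.62 (PDIA4 to PDIA6), -1.81 to -1.40 (SDF2L1 to SDF2), 0.46 to 0.74 (MANF to CDNF), -1.14 to -0.81 (HERPUD1 to HERPUD2), -0.98 to -0.58 (EDEM1 to EDEM2), -1.85 to -1.61 (EDEM1 to EDEM3) and -1.55 to -1.41 (XBP1 to ATF6). Of 300 counts of pathway genes called in either direction, higher and lower summed, 294 stayed within 1.5 times the reported sum, while the split between directions moved further with library size alone, as given above. Depth limits CDNF (17 to 70 reads), ERN2 (0 to 7) and PDIA2, and the pair at 24 h limits every value there.

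Among all genes tested, the number called moved by over 1.5 times mainly between hypoxic times. From 6 to 12 h 989 were called, against 4489 with sample weights, 1919 with DESeq2, 1674 without a filter, 1876 with only the groups compared and 510 with the replicate block. From 12 to 24 h 5668 became 1093 with sample weights and 0 with only the groups compared (5671 at an unadjusted p under 0.05), and from 6 to 24 h 8479 became 2531 and 3916. At 24 h against 0 h sample weights gave 6169 in place of 12235. With single libraries left out the count ran from 61 to 3649 between 6 and 12 h and from 3068 to 9491 between 12 and 24 h.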
